A study of Mus musculus with 4 samples.

Results

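The collagen genes were followed in brown fat of male C57BL/6 mice aged 15 weeks. They were taken as every gene whose symbol is Col, a type number, the letter a and a chain number, which gave 44 of the 55387 rows listed for each library. Brown adipose tissue (BAT) from 2 Sox4f/f mice, which carry a floxed Sox4 gene and no Cre and are labelled wild type, was compared with BAT from 2 Sox4-MKO littermates, in which Myf5-Cre deletes the floxed Sox4. Myf5-Cre acts in the lineage that gives brown adipocytes and skeletal muscle, so the deletion is not restricted to fat. Each mouse gave 1 library, and the whole tissue was sequenced although the labels name adipocytes as the cell type.

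Collagens are extracellular proteins in which 3 chains wind into a helix built on repeats of glycine and 2 other residues. Fibrillar collagens assemble into the banded fibres that give connective tissue its tensile strength, and are made mainly by fibroblasts and adipocyte progenitors. Type 4 collagen forms a sheet-like network in the basement membrane that surrounds every adipocyte, capillary and muscle fibre. Other types link fibres to each other or to cells, form beaded filaments, or sit in the plasma membrane. In adipose tissue the collagen matrix surrounds cells that change in size as lipid is stored and used.

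By the type numbers, 9 of the 44 genes are fibrillar (types 1, 2, 3, 5 and 11), 6 belong to type 4, and 29 are other types. Values are in FPKM, fragments scaled by transcript length and by the mapped fragments of the library, so levels can be compared between genes. The test was run on genes whose mean FPKM exceeded 1 in either genotype, the limit the study used, which kept 24 collagen genes and 12877 genes in all. The test was limma on log2(FPKM + 1), and every log2 fold change is Sox4-MKO over Sox4f/f on that scale, which understates differences of low genes. A gene is named called where its unadjusted p was under 0.05.

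The libraries labelled Sox4-MKO had more mRNA of most fibrillar and of the main type 6 collagens, while the 3 tested type 4 genes overlapped between genotypes. Of the 24 tested genes, 11 were called higher in Sox4-MKO (background 7.95% of all genes tested) and 2 were called lower (background 8.28%). The 11 were Col1a1, Col1a2, Col3a1, Col5a1, Col5a2, Col5a3, Col6a1, Col6a2, Col6a3, Col14a1 and Col15a1, and the 2 were Col12a1 and Col27a1. After Benjamini-Hochberg adjustment over all 12877 genes, limma called 0 genes (0.0% of all genes tested) and therefore no collagen gene, against 2090 genes at an unadjusted p under 0.05. The smallest adjusted p of a collagen gene was 0.191, which was also the smallest of any gene. The genotypes did not overlap at 15 of the 24 genes (background 51.3%), with Sox4-MKO above at 12 (background 21.7%) and below at 3 (background 29.6%). The median log2 fold change was 0.43 over the 24 genes and -0.05 over all genes tested. The number called higher was 5 without Sox4f/f mouse 2 and 6 without moderation of the variances, and the number called lower was 0 without Sox4f/f mouse 1 and 1 without Sox4f/f mouse 2.

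**Figure D1:**
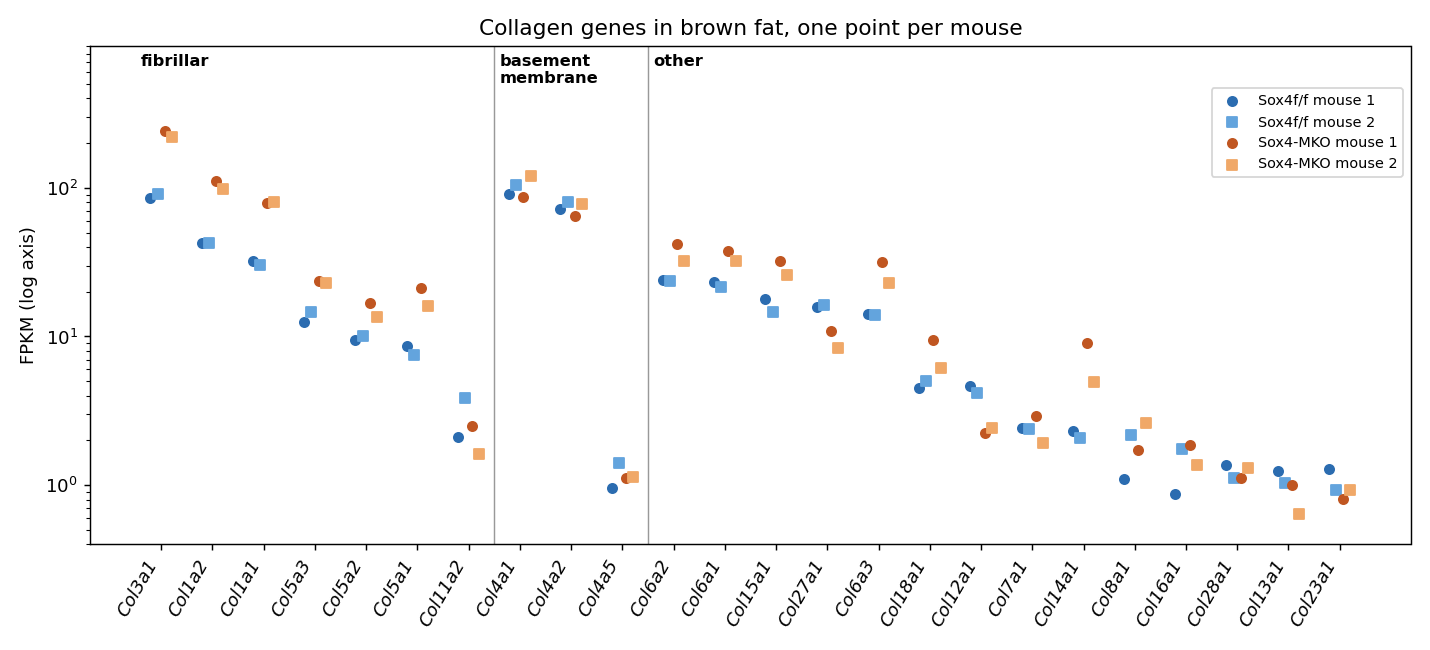
FPKM (log axis) of the 24 tested collagen genes in each of the 4 mice, ordered by class and by the Sox4f/f mean. The Sox4f/f points of Col3a1 are at 85.8 and 91.1 FPKM and its Sox4-MKO points at 242 and 221 FPKM, whereas the 4 points of Col4a1 were interleaved between 87.1 and 119 FPKM.

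A few facts about all 4 libraries bear on these values. From the smallest values of one-transcript genes, the depth was roughly 12100000 to 16200000 fragments per library. The FPKM values summed to 578011 and 544564 in Sox4f/f and to 495145 and 472062 in Sox4-MKO. Sox4 itself had 1.98 and 1.06 FPKM in Sox4f/f and 0.98 and 3.06 FPKM in Sox4-MKO, and its log2 fold change was 0.20 (SE 0.43, limma adjusted p = 0.843). The Sox4 mRNA thus did not separate the labels, and all directions follow the labels. The brown adipocyte genes Ucp1, Cidea, Adipoq, Plin1, Cox7a1 and Pparg were all present, with a sum of 6635 and 6493 FPKM in Sox4f/f and 4007 and 4690 FPKM in Sox4-MKO. Of these genes 0 were called higher and 3 lower by limma (background 7.95% and 8.28% of all genes tested). The marker lists of other cells are given after the collagen genes.

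Type 1 collagen is the main fibre of most connective tissues and is built from the chains that Col1a1 and Col1a2 encode. Col1a1 (chromosome 11 from 94936224 to 94953042, plus strand, GRCm38) had 32.0 and 30.1 FPKM in Sox4f/f mice 1 and 2 and 79.3 and 79.9 FPKM in Sox4-MKO mice 1 and 2. Both mice of each genotype were close together and the genotypes were far apart. The Sox4f/f mean of 31.1 ± 1.31 FPKM stood against 79.6 ± 0.46 FPKM in Sox4-MKO (SD, n = 2 mice each), 2.56 times as high. The log2 fold change was 1.33 (standard error, SE, 0.11, limma adjusted p = 0.191).
Col1a2 (chromosome 6 from 4504814 to 4541544) had 42.8 and 42.5 FPKM in Sox4f/f and 111 and 98.2 FPKM in Sox4-MKO. Its log2 fold change was 1.27 (SE 0.12, limma adjusted p = 0.191). The ratio of Col1a2 to Col1a1 was 1.34 and 1.41 in Sox4f/f and 1.397 and 1.229 in Sox4-MKO, so the ratios of both genotypes overlapped while both levels were more than 2 times as high.

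Type 3 collagen, a homotrimer of the Col3a1 chain, forms thin fibres together with type 1 in soft, distensible tissues. Col3a1 (chromosome 1 from 45311538 to 45349706) had 85.8 and 91.1 FPKM in Sox4f/f and 242 and 221 FPKM in Sox4-MKO. With a log2 fold change of 1.38 (SE 0.12, limma adjusted p = 0.191) Col3a1 had the largest value of the 24 tested collagen genes in the main fit. Col14a1 was above it at pseudocounts of 0.1 (1.57 against 1.39) and 0.01 (1.61 against 1.39), under TPM (1.603 against 1.596), without Sox4f/f mouse 1 (1.337 against 1.335) and without Sox4-MKO mouse 2 (1.65 against 1.44). Col1a1 was above it without Sox4f/f mouse 1 (1.371 against 1.335), without Sox4-MKO mouse 1 (1.336 against 1.312) and with a correction for GC and length (1.438 against 1.43). The ratio of Col3a1 to Col1a1 was 2.68 and 3.02 in Sox4f/f and 3.06 and 2.77 in Sox4-MKO, again with overlap. Together Col1a1, Col1a2 and Col3a1 made up 33.8% and 32.8% of the summed collagen FPKM in Sox4f/f and 51.5% and 49.8% in Sox4-MKO.

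Type 5 collagen lies inside type 1 fibres and sets where they start and how thick they grow. Col5a1 (chromosome 2 from 27886425 to 28039514) had 8.63 and 7.53 FPKM in Sox4f/f and 21.1 and 15.9 FPKM in Sox4-MKO, a log2 fold change of 1.10 (SE 0.19, limma adjusted p = 0.196). Col5a2 (chromosome 1 from 45374321 to 45503282) differed less, with 9.49 and 10.1 FPKM in Sox4f/f and 16.7 and 13.5 FPKM in Sox4-MKO and a log2 fold change of 0.57 (SE 0.16, limma adjusted p = 0.237). Col5a3 (chromosome 9 from 20770050 to 20815067) had 12.5 and 14.5 FPKM in Sox4f/f and 23.6 and 22.8 FPKM in Sox4-MKO, and its log2 fold change was 0.74 (SE 0.14, limma adjusted p = 0.196).
The call of Col5a2 was lost without Sox4f/f mouse 1 (unadjusted p = 0.098 by limma), Sox4f/f mouse 2 (0.073) or Sox4-MKO mouse 1 (0.075) and without moderation (0.059).
All 3 type 5 genes were thus above Sox4f/f in both Sox4-MKO mice, but not by the same factor. Col5a2 had more mRNA than Col5a1 in Sox4f/f, where the ratio of Col5a1 to Col5a2 was 0.91 and 0.75, and less in Sox4-MKO, where it was 1.27 and 1.18. These ratios did not overlap. An exact permutation test (two-sided) gave 0.333 for this ratio, which is the smallest p that 2 mice a group allow. Col5a2 lies 24.6 kb from Col3a1 on chromosome 1 and is read from the opposite strand.

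The remaining fibrillar genes were of low abundance, and type 2 and type 11 collagen are best known from cartilage. Col11a2 had 2.102 and 3.88 FPKM in Sox4f/f and 2.48 and 1.62 FPKM in Sox4-MKO, and the genotypes overlapped (log2 fold change -0.36, SE 0.31, limma adjusted p = 0.589). Col11a1 did not pass the FPKM filter, with 0.085 and 0.025 FPKM in Sox4f/f and 0.12 and 0.20 FPKM in Sox4-MKO. Col2a1, the defining cartilage collagen, was at 0.035 FPKM or below in every library and listed at 0 in 1 mouse of each genotype. Among cartilage markers, Acan, Matn1, Matn3, Hapln1 and Chad had a 0 in some or all libraries, and 1 of the 6 was tested and not called. Of the 7 fibrillar genes tested, 6 were called higher and 0 lower, beside 7.95% and 8.28% of all genes tested. The median log2 fold change of the 7 was 1.10, or 0.90 and 1.29 when Sox4-MKO mouse 1 or mouse 2 was left out.

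**Figure D2:**
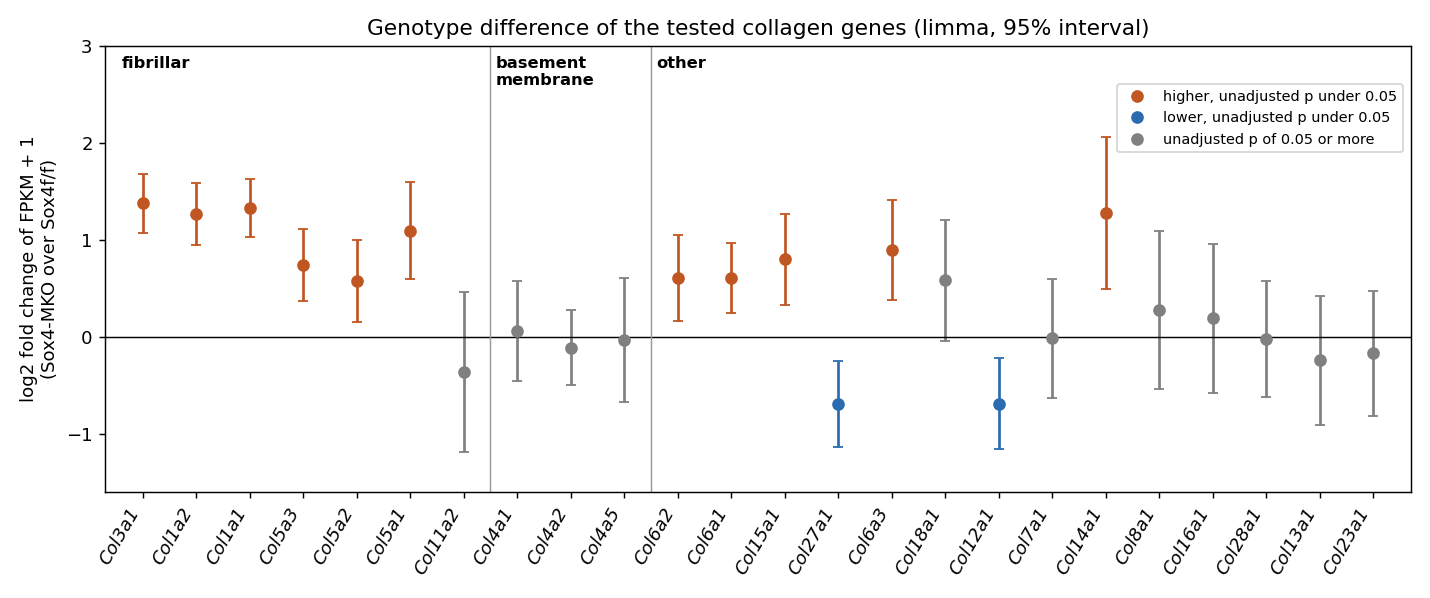
Log2 fold change (Sox4-MKO over Sox4f/f, FPKM + 1) of each tested collagen gene with its 95% interval by limma, coloured by the unadjusted p. The 6 called fibrillar genes lie between 0.57 and 1.38, the 3 type 4 genes between -0.11 and 0.06, and Col12a1 and Col27a1 both at -0.69.

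The promoters of called genes are shown because most fibrillar genes were higher while Col27a1 was lower. RefSeq windows (GRCm38.p6) were found for 35 of the 44 genes. The windows printed here hold the 250 bases before the RefSeq start of 3 genes called higher and 1 called lower, 5′ to 3′ on the strand of the gene. For Col1a2 and Col27a1 the RefSeq start used lies downstream of the GENCODE start, so their windows fall inside the GENCODE genes. Capitals mark the motifs searched on both strands, so that GGGCGG on the other strand reads CCGCCC. The motifs were AACAAAG and its variant AACAAGT for SOX4, then CCAAT for the box of that name, TATAAA for the TATA box, GGGCGG for the GC box, and the palindromic site of EBF factors.
Col1a2 (chr6:4505368-4505617, plus strand): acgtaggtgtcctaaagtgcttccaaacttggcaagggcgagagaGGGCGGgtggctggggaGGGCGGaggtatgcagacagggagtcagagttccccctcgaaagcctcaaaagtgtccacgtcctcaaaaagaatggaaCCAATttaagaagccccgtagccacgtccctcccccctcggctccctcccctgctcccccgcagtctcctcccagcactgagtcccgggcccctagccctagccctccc
Col3a1 (chr1:45311288-45311537, plus strand): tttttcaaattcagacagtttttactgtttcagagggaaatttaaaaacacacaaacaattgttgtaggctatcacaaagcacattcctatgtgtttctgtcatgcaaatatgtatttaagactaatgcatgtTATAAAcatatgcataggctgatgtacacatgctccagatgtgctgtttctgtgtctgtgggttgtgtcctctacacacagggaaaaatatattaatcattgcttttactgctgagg
Col5a1 (chr2:27886175-27886424, plus strand): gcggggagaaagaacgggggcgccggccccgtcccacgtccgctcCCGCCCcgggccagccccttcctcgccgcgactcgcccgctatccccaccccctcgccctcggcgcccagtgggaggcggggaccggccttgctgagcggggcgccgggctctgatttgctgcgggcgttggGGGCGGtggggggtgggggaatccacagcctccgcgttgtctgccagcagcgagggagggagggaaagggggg
Col27a1 (chr4:63215162-63215411, plus strand): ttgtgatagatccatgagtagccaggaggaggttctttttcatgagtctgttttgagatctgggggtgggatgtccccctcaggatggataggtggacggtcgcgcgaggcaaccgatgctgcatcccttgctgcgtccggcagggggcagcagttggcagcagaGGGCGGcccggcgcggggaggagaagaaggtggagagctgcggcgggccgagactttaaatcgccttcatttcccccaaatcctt
The 3 genes called higher did not share one layout. Col1a2 holds a CCAAT 105 to 109 bases before its start and 2 copies of GGGCGG, Col3a1 holds a TATAAA 112 to 117 bases before its start and no GGGCGG, and Col5a1 holds GGGCGG once on each strand. AACAAAG and AACAAGT were found in none of the 8 genes called higher that have a window, against 5.03% and 2.54% of all 32851 windows, and among the 20 tested genes with a window only Col28a1 held either. GGGCGG was found in 4 of the 8 and in 32.7% of all windows, and CCAAT in 2 of the 8 and in 33.8% of all windows. TATAAA was found in 1 of the 8 and in 12.4% of all windows. The EBF site was found in 0 of the 8 and in 0.779% of all windows. A gene was counted where any of its windows held the motif, whereas the percentages are over single windows, so the 2 are not strictly alike. The SOX4 and EBF motifs are so rare among all windows that none in 8 genes would be usual. Their absence therefore cannot decide whether SOX4 or EBF factors bind near these genes. The SOX4 sites that the study describes for Ebf2, Ucp1 and Prdm16 also lie farther upstream than these windows reach.

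Type 4 collagen was the most abundant class in Sox4f/f next to the fibrillar genes, and its 3 tested genes did not separate the genotypes. The common type 4 network is built from the chains of Col4a1 and Col4a2, whose genes start head to head on chromosome 8 and overlap by 22 bases at their starts in GENCODE M21. Col4a1 (from 11198423 to 11312826, minus strand) had 90.8 and 105 FPKM in Sox4f/f and 87.1 and 119 FPKM in Sox4-MKO. Col4a2 (from 11312805 to 11449287, plus strand) had 72.4 and 80.5 FPKM in Sox4f/f and 64.5 and 77.6 FPKM in Sox4-MKO.
In both genes Sox4-MKO mouse 1 was the lowest of the 4 mice, and the genotypes overlapped. The log2 fold change of Col4a1 was 0.06, with a 95% interval from -0.45 to 0.58, and that of Col4a2 was -0.11, with an interval from -0.49 to 0.28 (adjusted p = 0.891 and 0.734 by limma). A log2 fold change of 1 lies outside both intervals, but some smaller differences in either direction lie inside. The sign of both genes changed between alternatives, Col4a1 with single mice left out and Col4a2 also under the TPM scaling and a correction for GC and length.
The ratio of Col4a1 to Col4a2 was 1.25 and 1.30 in Sox4f/f and 1.35 and 1.54 in Sox4-MKO. These values did not overlap, with an exact permutation p of 0.333, the smallest that the design allows.

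The other type 4 chains, which replace the common network at specialised sites such as the kidney filter, were scarce. Col4a5 had 0.96 and 1.41 FPKM in Sox4f/f and 1.12 and 1.13 FPKM in Sox4-MKO, far below Col4a1, and a log2 fold change of -0.03 (95% interval -0.67 to 0.60, adjusted p = 0.957 by limma) whose sign also depended on the alternative. Its head-to-head neighbour Col4a6, 1.31 kb away on chromosome X, did not exceed 0.069 FPKM. Col4a3 and Col4a4, whose starts are 71 bases apart on chromosome 1, did not pass the filter. Col4a3 had 0.33 and 0.34 FPKM in Sox4f/f and 0.70 and 0.54 FPKM in Sox4-MKO, and Col4a4 had 0.37 and 0.38 FPKM against 0.47 and 0.71 FPKM, from an estimated 36 to 116 fragments per value. Both were higher in Sox4-MKO without overlap, but neither was tested.

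The balance between fibrillar and type 4 collagen was also compared. The ratio of Col3a1 to Col4a1 was 0.95 and 0.87 in Sox4f/f and 2.78 and 1.85 in Sox4-MKO, and that of Col1a1 to Col4a1 was 0.35 and 0.29 against 0.91 and 0.67. Neither ratio overlapped between genotypes, and each had an exact permutation p of 0.333, the smallest that the design allows. Both ratios reuse the values given above for these genes, so they are no further test. Col4a1 was the collagen gene with the highest mean in Sox4f/f (97.8 ± 9.97 FPKM, SD, n = 2), followed by Col3a1 (88.5 ± 3.75 FPKM). These neighbours differed by less than the spread between mice, since Col4a1 was at 90.8 FPKM in mouse 1 and Col3a1 at 91.1 FPKM in mouse 2. In Sox4-MKO the order began with Col3a1 (232 ± 14.9 FPKM), Col1a2 (105 ± 8.86 FPKM) and Col4a1 (103 ± 22.9 FPKM), of which Col3a1 stood clear of the other genes and the next 2 overlapped.
As sums of FPKM, the fibrillar class had 193.4 and 199.8 in Sox4f/f and 496.1 and 453.4 in Sox4-MKO, or 40.7% and 40.0% of all collagen FPKM against 59.2% and 56.6%. The type 4 class had 164.9 and 187.5 FPKM in Sox4f/f and 153.9 and 199.6 FPKM in Sox4-MKO, a ratio of the means of 1.00. Its share was 34.7% and 37.5% in Sox4f/f and 18.4% and 24.9% in Sox4-MKO. All collagen genes together took 0.082% and 0.092% of all FPKM in Sox4f/f and 0.17% in both Sox4-MKO mice.

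**Figure D3:**
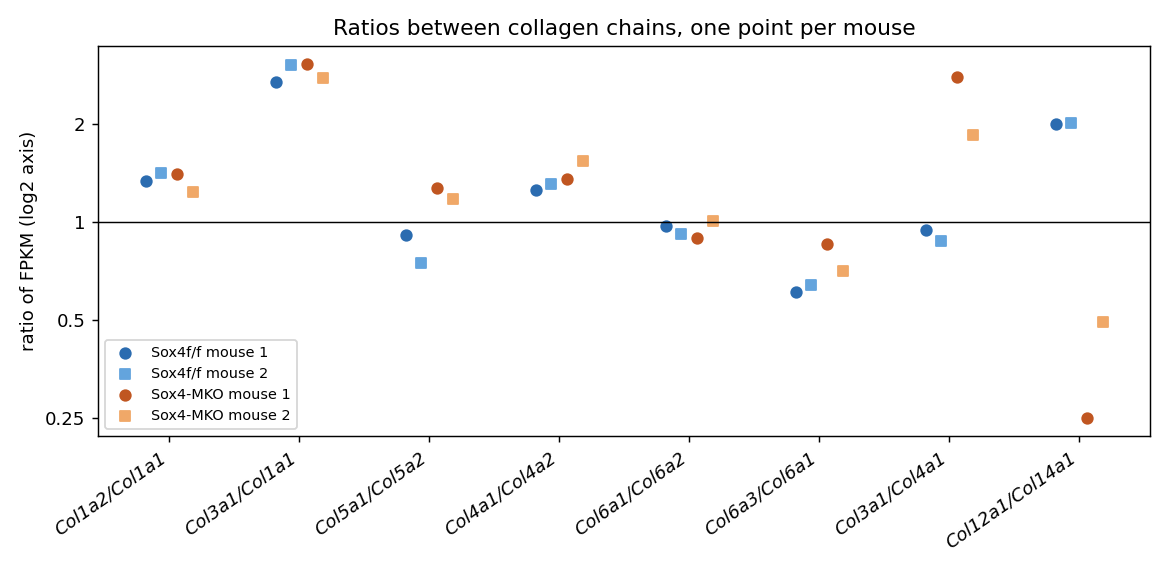
Ratios of FPKM between collagen chains (log2 axis) in each of the 4 mice. The ratios of Col1a2 and Col3a1 to Col1a1 overlap between genotypes, whereas Col3a1 over Col4a1 moves from 0.95 and 0.87 to 2.78 and 1.85 and Col12a1 over Col14a1 from 1.99 and 2.01 to 0.25 and 0.49.

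Laminins, nidogens, perlecan and agrin lie beside type 4 collagen in the basement membrane. Of 12 tested genes for these proteins, 4 were called higher and 2 lower, beside 7.95% and 8.28% of all genes tested, and their median log2 fold change was -0.13. Nid1, which bridges laminin and type 4 collagen, had 26.02 and 26.44 FPKM in Sox4f/f and 50.1 and 52.8 FPKM in Sox4-MKO. Its log2 fold change was 0.95 (SE 0.11, limma adjusted p = 0.191). Nid2 (0.86), the laminin chain Lamc1 (0.52) and Lama2 (0.49), the laminin chain typical of muscle, were the others called higher, and Lamb1 (-0.60) and Agrn (-0.66) were called lower. Hspg2, which encodes perlecan, had 71.5 and 63.2 FPKM in Sox4f/f against 61.0 FPKM in both Sox4-MKO mice, without overlap, and was not called.

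Type 6 collagen forms beaded filaments close to the surface of adipocytes and muscle fibres, from the chains of Col6a1, Col6a2 and Col6a3. Col6a1 had 23.3 and 21.6 FPKM in Sox4f/f and 37.5 and 32.4 FPKM in Sox4-MKO, and Col6a2, its neighbour 85.2 kb away on chromosome 10, had 24.1 and 23.6 FPKM against 42.1 and 32.2 FPKM. Their log2 fold changes were alike at 0.61 (standard errors 0.14 and 0.17, adjusted p = 0.214 and 0.236 by limma), and the ratio of Col6a1 to Col6a2 stayed between 0.89 and 1.01 in all 4 mice. Col6a3 had 14.2 and 13.9 FPKM in Sox4f/f and 31.9 and 22.8 FPKM in Sox4-MKO, a log2 fold change of 0.89 (SE 0.20, limma adjusted p = 0.214).
The call of Col6a2 was lost without either Sox4f/f mouse and without moderation, that of Col6a3 without Sox4f/f mouse 2 and without moderation, and that of Col6a1 without Sox4f/f mouse 2 (limma unadjusted p between 0.053 and 0.093).
The fold change of Col6a3 was the larger, and its ratio to Col6a1 was 0.61 and 0.64 in Sox4f/f and 0.85 and 0.70 in Sox4-MKO, without overlap (exact permutation p = 0.333). The alternative chains Col6a4, Col6a5 and Col6a6, which lie in a row on chromosome 9, did not pass the filter. Col6a6 had 0.38 and 0.35 FPKM in Sox4f/f and 0.94 and 0.65 FPKM in Sox4-MKO, Col6a5 had 0.060 and 0.061 FPKM against 0.19 and 0.27 FPKM, and Col6a4 was listed at 0 in 3 of the 4 libraries.

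Collagens of types 12 and 14 belong to the FACIT group, which decorate the surface of fibres without forming fibres themselves, and these close relatives differed in opposite directions. Col14a1 (chromosome 15 from 55307750 to 55520803) had 2.32 and 2.06 FPKM in Sox4f/f and 9.0 and 4.97 FPKM in Sox4-MKO, a log2 fold change of 1.28 (SE 0.30, limma adjusted p = 0.214). Sox4-MKO mouse 1 was 1.81 times as high as mouse 2, and leaving it out gave a log2 fold change of 0.91, against 1.65 when mouse 2 was left out. Its call was lost without Sox4f/f mouse 2 (limma unadjusted p = 0.063) and without moderation (0.077). Col12a1 (chromosome 9 from 79598991 to 79718831) had 4.61 and 4.14 FPKM in Sox4f/f and 2.24 and 2.44 FPKM in Sox4-MKO, a log2 fold change of -0.69 (SE 0.18, limma adjusted p = 0.227).
Both mice of each genotype were close for Col12a1, and the Sox4-MKO mean was 0.53 times the Sox4f/f mean. Without Sox4f/f mouse 1 its log2 fold change was -0.63 and it was no longer called. The ratio of Col12a1 to Col14a1 was 1.99 and 2.01 in Sox4f/f and 0.25 and 0.49 in Sox4-MKO (exact permutation p = 0.333). The third tested FACIT gene, Col16a1, overlapped, with 0.88 and 1.75 FPKM in Sox4f/f and 1.86 and 1.36 FPKM in Sox4-MKO.

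Col27a1 is a fibrillar collagen by structure, known from cartilage, although its type number places it here among the other types. It had 15.8 and 16.2 FPKM in Sox4f/f and 10.8 and 8.41 FPKM in Sox4-MKO, against the direction of the 6 called fibrillar genes. The log2 fold change was -0.69 (SE 0.17, limma adjusted p = 0.219), and it was not called without either Sox4f/f mouse, at -0.70 and -0.67, or without moderation (limma unadjusted p = 0.054). Among the collagen genes of Sox4f/f it ranked next to Col15a1 and Col6a3, with a mean of 15.97 ± 0.28 FPKM (SD, n = 2). Its relative Col24a1 did not pass the filter.

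Types 15 and 18 carry long sugar chains and lie at the border between basement membrane and fibres. Col15a1 (chromosome 4 from 47208161 to 47313167) had 17.8 and 14.6 FPKM in Sox4f/f and 32.1 and 25.9 FPKM in Sox4-MKO, a log2 fold change of 0.80 (SE 0.18, limma adjusted p = 0.214). Its call was lost without Sox4f/f mouse 2 (limma unadjusted p = 0.055) and without moderation (0.057). Col18a1, whose C-terminal fragment is endostatin, had 4.52 and 5.02 FPKM in Sox4f/f and 9.47 and 6.13 FPKM in Sox4-MKO. Its genotypes did not overlap, but it was not called (log2 fold change 0.58, SE 0.24, limma adjusted p = 0.327), and its log2 fold change was 0.31 without Sox4-MKO mouse 1 and 0.86 without mouse 2.

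The other 6 tested genes, Col7a1 of the anchoring fibrils, Col8a1 of a network-forming type, Col28a1 and the membrane-spanning Col13a1 and Col23a1 besides Col16a1, were not called, with log2 fold changes between -0.24 and 0.28. Col13a1 had 1.25 and 1.03 FPKM in Sox4f/f and 1.01 and 0.64 FPKM in Sox4-MKO, without overlap. Col8a1 had 1.10 and 2.19 FPKM in Sox4f/f and 1.73 and 2.61 FPKM in Sox4-MKO. The Sox4f/f mice differed by more than the genotype means (1.64 and 2.17 FPKM). The signs of Col7a1, Col8a1, Col16a1 and Col28a1 depended on the alternative. Over the 14 tested genes of the other types, 5 were called higher and 2 lower, beside 7.95% and 8.28% of all genes tested. The median log2 fold change of the 14 was 0.24, or 0.51 without Sox4f/f mouse 2.

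Of the 20 genes under the filter, 12 were above 0 in every library, 6 were listed at 0 in some libraries, and Col9a1 and Col10a1 were listed at 0 in all 4. The highest mean just under the filter was 0.89 FPKM and the lowest just above it was 1.11 FPKM. Only Col26a1 differed between libraries by more than 1 FPKM, being listed at 0 in both Sox4f/f mice and at 0.27 and 1.52 FPKM in Sox4-MKO, from an estimated 10 and 69 fragments. Apart from Col26a1, no value under the filter was above 0.98 FPKM.

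Collagen chains are modified and folded inside the cell and trimmed and crosslinked outside it. Of 21 tested genes for hydroxylation, folding and export inside the cell, only P4hb, the disulfide isomerase that is also part of prolyl hydroxylase, was called higher and 0 were called lower by limma, beside 7.95% higher and 8.28% lower over all genes tested, with a median log2 fold change of 0.12. P4hb had 38.0 and 35.3 FPKM in Sox4f/f and 64.5 and 52.7 FPKM in Sox4-MKO. Serpinh1, the collagen chaperone HSP47, had 189 and 260 FPKM in Sox4f/f and 197 and 329 FPKM in Sox4-MKO, and the hydroxylase subunit P4ha1 had 30.0 and 32.0 FPKM against 18.1 and 47.0 FPKM. Both overlapped.
Of 8 tested genes that trim procollagen or crosslink it outside the cell, 5 were called higher and 0 lower, with a median of 0.56 and the same background of 7.95% and 8.28%. These were Pcolce (0.94), which enhances removal of the C-terminal propeptide, its relative Pcolce2 (0.85), the crosslinking enzyme Loxl1 (0.89), Adamts2 (0.67), which removes the N-terminal propeptide, and Bmp1 (0.45), which removes the C-terminal one. Lox had 8.03 and 8.43 FPKM in Sox4f/f and 6.31 and 8.11 FPKM in Sox4-MKO and was not called. Of 8 tested collagen receptors and uptake genes, the kinase receptor Ddr2 (0.49) and the uptake receptor Mrc2 (0.49) were called higher and 0 lower, against the background of 7.95% and 8.28%, with a median of 0.32. Whether these groups differ from each other was not tested.

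Markers of some other cell types moved with the genotype as well, while the mural sums overlapped and the endothelial sums overlapped narrowly. In bulk tissue more cells of a type cannot be told from more RNA per cell. All 10 fibroblast and progenitor markers were called higher (background 7.95% of all genes tested), with a median log2 fold change of 1.03. Their sum was 344 and 389 FPKM in Sox4f/f and 719 and 645 FPKM in Sox4-MKO. None of the 10 was listed at 0. Dpt had 34.1 and 41.9 FPKM in Sox4f/f and 87.9 and 73.9 FPKM in Sox4-MKO, and Pdgfra had 4.22 and 5.07 FPKM against 7.17 and 8.44 FPKM. The fibrillar sum was 0.56 and 0.51 times the sum of the fibroblast markers in Sox4f/f and 0.69 and 0.70 times that sum in Sox4-MKO. Of the 9 ratios of Col1a1, Col1a2 and Col3a1 to Pdgfra, Dpt and Dcn, 8 were higher in Sox4-MKO without overlap, such as Col1a1 to Pdgfra with 7.58 and 5.94 in Sox4f/f and 11.1 and 9.47 in Sox4-MKO. The exception was Col1a1 to Dpt, with 0.94 and 0.72 in Sox4f/f and 0.90 and 1.08 in Sox4-MKO. These 9 ratios share genes, and the other markers of the list were not used as denominators. Log2 fold changes of the 10 markers ran from 0.54 (Ly6a) to 1.46 (Dpp4). That of Dpp4 was above those of Col1a1 (1.33), Col1a2 (1.27) and Col3a1 (1.38), and those of the rest were below. This order holds on the log2(FPKM + 1) scale, which understates low markers such as Dpp4 and Mfap5 more than these abundant collagen genes. The sum of all collagens was 1.38 and 1.29 times the fibroblast sum in Sox4f/f and 1.17 and 1.24 times in Sox4-MKO, lower without overlap.
For type 4 collagen, which endothelial and mural cells also make, the 8 endothelial markers summed to 224 and 259 FPKM in Sox4f/f and 166 and 225 FPKM in Sox4-MKO. Of these markers 0 were called higher and 1, Tie1, lower by limma (background 7.95% and 8.28% of all genes tested). The endothelial sums overlapped only because Sox4-MKO mouse 2 (224.6) lay just above Sox4f/f mouse 1 (223.8). By single genes, 4 of the 8 endothelial markers were lower in Sox4-MKO without overlap (background 29.6%) and 0 higher (background 21.7%). Their median log2 fold change was -0.34. The 8 mural markers summed to 191 and 223 FPKM against 166 and 227 FPKM, with 1 called higher and 0 lower (background 7.95% and 8.28%). In both lists, as in Col4a1 and Col4a2, Sox4-MKO mouse 1 was the lowest of the 4 mice. None of these 16 markers was listed at 0.
Of 8 macrophage markers, 6 were called higher (background 7.95%), and the sum of the 8 was 213 and 316 FPKM against 442 and 434 FPKM. Of 5 tested Schwann cell markers, 0 were called by limma (background 16.2% in either direction), with sums over all 6 of 43.4 and 21.8 FPKM against 68.3 and 50.5 FPKM. The part of these cells in the collagen values was not tested.

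Skeletal muscle, which carries its own collagen sheath, had the largest ratio of summed marker FPKM among the 9 marker lists, 17.9 times the Sox4f/f mean. The 8 muscle markers summed to 187 and 691 FPKM in Sox4f/f and to 13320 and 2444 FPKM in Sox4-MKO. Of these markers 7 were called higher (background 7.95% of all genes tested), and none was listed at 0. Sox4-MKO mouse 1 had 5.45 times the muscle sum of mouse 2. The 11 collagen genes called higher were between 0.99 and 1.81 times as high in mouse 1 as in mouse 2, with Col1a1 at 0.99, Col3a1 at 1.10 and Col14a1 at 1.81. Within Sox4f/f, mouse 2 had 3.71 times the muscle sum of mouse 1, and the same 11 genes were between 0.82 (Col15a1) and 1.16 (Col5a3) times as high. Without Sox4-MKO mouse 1, 10 of the 11 genes remained called higher, Col5a2 being the exception, and both lower genes remained called lower. Muscle markers and genotype differ together in these libraries, and the part of muscle in the collagen values was not tested.
Tendon and fascia genes were low. Thbs4, the only one of 8 that was tested, had 0.15 and 0.076 FPKM in Sox4f/f and 5.72 and 4.19 FPKM in Sox4-MKO, and among those under the filter Scx (0.067 and 0.155 FPKM against 1.294 and 0.652 FPKM), Tnmd (0.054 and 0 FPKM against 0.528 and 0.242 FPKM) and Comp (0.094 and 0.109 FPKM against 0.389 and 0.213 FPKM) were also higher without overlap. Fmod (0.225 and 0.379 FPKM against 0.850 and 0.378 FPKM) and Mkx (0.019 and 0 FPKM against 0.345 and 0.016 FPKM) overlapped. The share of all genes under the filter that do not overlap was not computed. Chad was listed at 0 in all 4 libraries and Kera in 3. The sum of the 8 was 0.61 and 0.72 FPKM against 9.13 and 5.72 FPKM.

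**Figure D4:**
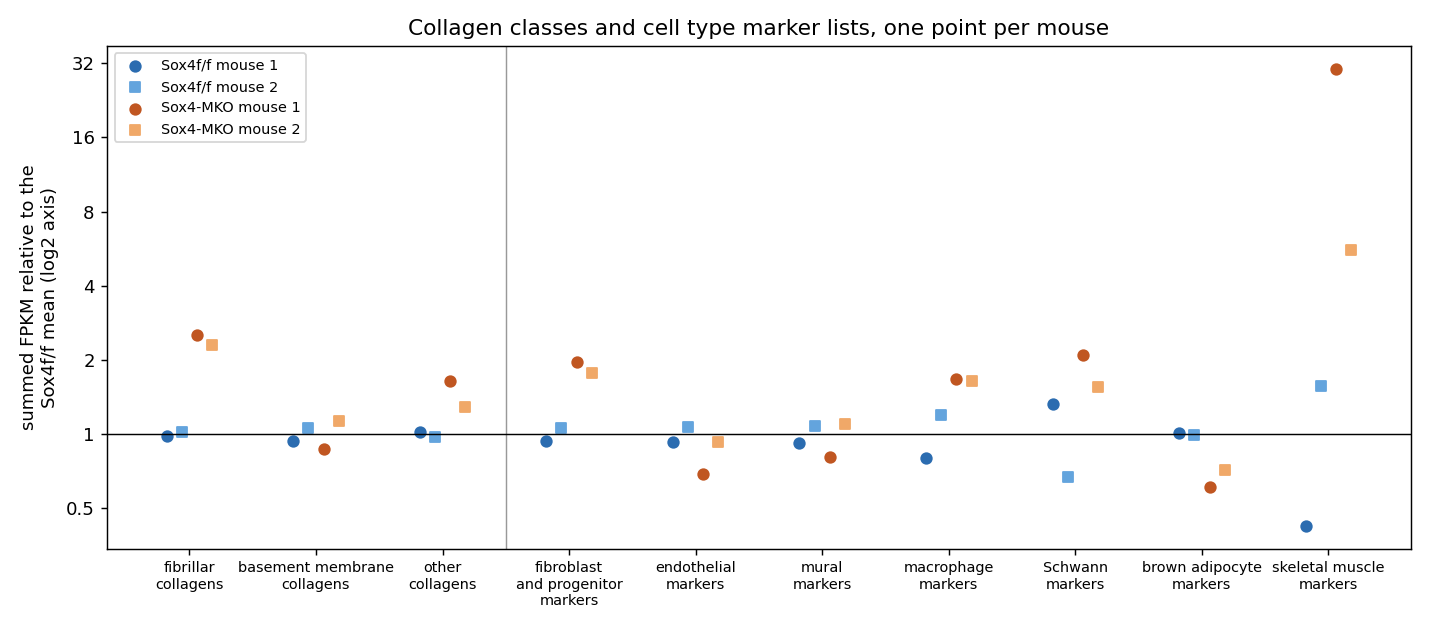
Summed FPKM of each collagen class and of 7 cell type marker lists, divided by the Sox4f/f mean (log2 axis), with 1 point per mouse. The fibrillar class and the fibroblast markers lie above Sox4f/f in both Sox4-MKO mice. The basement membrane class and the mural markers overlap, and the endothelial markers overlap narrowly. The muscle markers differ 5.45-fold between the Sox4-MKO mice.

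The direction of each of the 13 called genes was the same under all 4 rescalings of the libraries, which matters because the FPKM sums of the genotypes differ. Rescaling every library to the same sum (TPM) moved the median of all genes by 0.20 on the log2 scale. After it 12 collagen genes were called higher and 2 lower, and of all genes called 14.8% were lower, against 51.0% before, and 36.1% when the sum left out mitochondrially encoded genes and Ucp1. Exonic overlap with another annotated gene can mix fragments where strand is not used in counting. Apart from Col4a1 and Col4a2, whose starts overlap each other, the annotated genes that overlap exons of the tested collagen genes had at most 0.061 FPKM.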

How the data were processed

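RNA sequencing values of brown fat from 4 mice, 2 Sox4f/f and 2 Sox4-MKO, were used, grouped by the sample labels. The authors deposited 1 FPKM value per gene and library. Per the labels, total RNA went into a stranded mRNA library. The submitters' processing notes name Cufflinks 2.1.1, Cuffdiff and mm10, and the aligner and the gene annotation are not given in the sources used here. FPKM are not counts, so limma 3.58.1 in R 4.3.3 was fitted to log2(FPKM + 1) over genes with a mean FPKM above 1 in at least one genotype, a model with no term but genotype, moderated by eBayes along the mean-variance trend. p-values are two-sided and adjusted by Benjamini-Hochberg over all genes tested. They rest on the spread between 2 mice a group, moderated by the spread of other genes. The fit was tested on simulated data.

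The collagen genes, their classes and the marker and pathway lists were chosen with earlier results of these data known. Collagen genes above the FPKM limit could be named with all 4 values, and full statistics go to those with an unadjusted p under 0.05, the most abundant of each class and the tested fibrillar, type 4 and type 6 genes. Those under the limit are named where libraries differ by over 1 FPKM or a partner chain is named. Of the pathway genes, those called are named, whereas called marker genes are mostly given as counts. Serpinh1, P4ha1, Lox, Hspg2, Ly6a, Dpp4, Mfap5, Scx, Tnmd, Comp, Fmod, Mkx, Kera and Chad were named after their values were seen. Gene coordinates and lengths are those of GENCODE M21 (GRCm38) for the same symbol, and promoter windows are from RefSeq.

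Depth was estimated from the lowest values of genes with 1 transcript of at least 1500 nt, taking their cluster times transcript length as 1 fragment. These fragment numbers are rough and cover counting error only. Other settings tried were the mouse number as a block, each mouse left out, 4 rescalings, FPKM limits of 0.1, 5 and none, leaving out genes listed at 0, pseudocounts of 0.1 and 0.01, limma without moderation or without trend, and loess fits (span 0.5) on GC and length, for which 98.7% of the tested genes and 100% of the tested collagen genes had a value. Figures were drawn with matplotlib 3.10.9.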

Additional observations from a re-analysis of the deposited data

How the results depend on the processing

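Over 18 alternatives, none of the 13 called collagen genes changed sign, and 18 of their 233 refitted values lost an unadjusted p under 0.05, all of them when a mouse was left out or without moderation. The genes Col1a1, Col1a2, Col3a1, Col5a1 and Col5a3 were called in every alternative. The number called higher was between 5 and 12 with a mouse left out and 6 without moderation. The number called lower was between 0 and 2 with a mouse left out, 1 with a limit of 5 FPKM, which 1 of the 2 genes does not pass, and 1 without moderation. The fibrillar median was between 0.90 and 1.29 with a mouse left out, 1.34 after rescaling to TPM, 0.92 with a limit of 0.1 FPKM and 0.74 without a limit, where 8 and 9 genes entered. The median of the other types was between 0.056 and 0.51 with a mouse left out and 0.61 with a limit of 5 FPKM, where 7 genes entered.

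Sign changes were found only among genes that were not called. With a mouse left out, log2 fold changes were between -0.24 and 0.024 for Col4a2, -0.18 and 0.12 for Col4a5, -0.23 and 0.20 for Col7a1, -0.16 and 0.29 for Col4a1, -0.084 and 0.47 for Col16a1, -0.022 and 0.58 for Col8a1, and -0.10 and 0.056 for Col28a1. After rescaling to TPM the values of Col4a2, Col4a5, Col7a1 and Col28a1 were 0.10, 0.11, 0.16 and 0.12. After rescaling without mitochondrially encoded genes and Ucp1, those of Col4a5, Col7a1 and Col28a1 were 0.006, 0.036 and 0.021. With the loess fits on GC and length, those of Col4a2, Col4a5, Col7a1 and Col28a1 were 0.018, 0.012, 0.095 and 0.013. The cause of these changes was not tested.

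With the mouse number as a replicate block, 11 genes were called higher and 2 lower, the same genes as without it. Mice with the same number did not deviate together from their genotype means (correlation -0.012 across the tested genes), so the numbers were not treated as pairs. Depth limits the genes under the filter, where most values rest on fewer than 100 estimated fragments. Over all genes, the 1024 called higher and 1066 called lower became 1904 and 330 after rescaling to TPM, 553 and 935 without moderation, 445 and 404 without Sox4f/f mouse 1, 567 and 503 without Sox4f/f mouse 2, and 1559 and 835 without Sox4-MKO mouse 2.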
